A study of Rattus norvegicus with 9 samples.

Results

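Reactive astrocyte genes, 8 in number, were followed over 9 one-colour microarrays of rat brain: Gfap, Vim, Cd44, Steap4, Lcn2, Serpina3n, S1pr3 and Osmr. Members were all non-control probes whose annotated transcript belongs to 1 of these genes, which gave 11 of the 30367 probes on the array. They cover 7 of the 15168 genes that the probes name and 7 of the 8 listed genes, since no probe was matched to S1pr3, a sphingosine-1-phosphate receptor, and it is not analysed here. Gfap, Vim, Lcn2, Serpina3n and Osmr had 1 probe each, Steap4 had 2 and Cd44 had 4. All samples were total RNA from brain of male Sprague Dawley rats, with 3 arrays in each of 3 groups. Sham rats carried no occlusion, and the labels name no injection for them. The other groups had middle cerebral artery occlusion (MCAO) with reperfusion, a model of stroke, and received intraperitoneal saline (vehicle) or 50 mg/kg salidroside, a glycoside of Rhodiola plants, daily over 6 days from 1 h after reperfusion. The labels say that ischemic brain was dissected but not which region, nor how far from the infarct. Each array was taken as 1 rat, because the labels give 3 rats per group.

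Astrocytes answer injury with a state called reactive, in which they thicken their processes with the intermediate filaments GFAP and vimentin and surround the lesion with a glial border. In the same state they make secreted proteins such as lipocalin 2 and the protease inhibitor SERPINA3N. Cytokines of the interleukin 6 family, which signal through the shared receptor subunit gp130 and the transcription factor STAT3, are a main trigger, and OSMR is the gp130 partner that binds oncostatin M. Several of these genes are also active in other cells, for example Vim in endothelium, ependyma and fibroblasts, Cd44 in leukocytes and Lcn2 in neutrophils. In bulk tissue, fewer cells of a type and less RNA per cell cannot be told apart.

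Promoters are shown for the defining gene Gfap and for the 2 members whose window of 300 bases (250 before the start to 50 after it) held a match to the STAT motif TTCNNNGAA, which reads the same on both strands. The sequences are from RefSeq on the rat build GRCr8, 5′ to 3′ on the gene's own strand, with matches in capitals, of which the Gfap window has none. Gfap is at chr10:88361612-88361911 (minus strand), Steap4 at chr4:27054720-27055019 (minus strand) and Serpina3n at chr6:129088142-129088441 (plus strand).
Gfap: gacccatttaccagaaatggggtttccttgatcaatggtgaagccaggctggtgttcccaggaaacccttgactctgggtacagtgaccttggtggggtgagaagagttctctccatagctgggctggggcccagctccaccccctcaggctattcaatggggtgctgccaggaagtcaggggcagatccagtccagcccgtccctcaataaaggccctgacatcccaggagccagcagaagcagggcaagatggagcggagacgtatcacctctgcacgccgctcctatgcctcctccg
Steap4: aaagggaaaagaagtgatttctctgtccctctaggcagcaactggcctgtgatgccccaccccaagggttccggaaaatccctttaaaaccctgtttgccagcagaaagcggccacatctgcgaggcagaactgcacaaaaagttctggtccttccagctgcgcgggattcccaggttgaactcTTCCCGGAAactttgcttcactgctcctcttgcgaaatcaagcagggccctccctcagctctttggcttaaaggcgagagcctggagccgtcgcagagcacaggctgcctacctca
Serpina3n: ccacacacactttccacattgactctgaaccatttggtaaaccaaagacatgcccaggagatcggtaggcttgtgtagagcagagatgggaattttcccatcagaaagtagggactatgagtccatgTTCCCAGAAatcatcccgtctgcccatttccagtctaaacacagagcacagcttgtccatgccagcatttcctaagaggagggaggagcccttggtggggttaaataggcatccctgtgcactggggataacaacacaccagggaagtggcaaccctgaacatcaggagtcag
The match starts 66 bases before the start site in Steap4 and 123 bases before it in Serpina3n. This makes 2 of the 8 member promoters, while 8.87% of all 33469 promoters of the same length hold the motif. The AP-1 motif TGANTCA, also the same on both strands and not overlapping the STAT matches, was found in 1 member promoter, that of Osmr (TGATTCA, 33 bases before the start), and in 7.33% of all promoters. A match describes letters only, and the arrays measured no binding.

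The share of probes that Feature Extraction marked as well above background was 65.63% on sham replicate 3, the 1 array scanned on another day, and 81.97% to 88.53% on the other 8. Slide here means the arrays that share 1 scan identifier in the file headers. It was not read from a slide label. Sham and MCAO arrays shared none of the 4 slides, so slide and MCAO cannot be told apart, whereas vehicle and salidroside arrays shared 2 slides. The homeostatic astrocyte markers Aqp4 (water channel) and Slc1a3 (glutamate transporter), the neuronal Snap25 and the myelin gene Mbp were well above background on all 9 arrays. Values are log2 of the processed signal minus the 75th percentile of the array, called scaled log2 below. They compare arrays for 1 probe and say nothing about which gene is expressed more.

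After MCAO with vehicle, the most intense probe of 6 of the 7 genes was higher than in sham, beside 7887 of all 13276 named genes. The median log2 difference was 1.64, against 0.1 over all named genes. On probe 1, Steap4 rose 4.6-fold and Cd44 3.11-fold. Steap4 probe 2 was 1.19-fold higher and Cd44 probes 2 and 3 were 1.3- and 1.64-fold higher. The dim Cd44 probe 4 was 1.74-fold lower. The values of Lcn2, Vim and Gfap were 5.69-, 3.14- and 2.89-fold higher with no overlap between arrays, but did not pass the adjusted test. Osmr stood at the sham level. Counted over all 11 probes, limma called 2 as higher and 0 as lower (Benjamini-Hochberg adjusted p under 0.05 over 25576 probes), where 1.02% of all tested probes were called higher and 1.49% lower. Both calls, on probe 1 of Steap4 and of Cd44, were lost with slide as a random block. At an unadjusted p under 0.05, 6 of the 11 were higher and 0 lower, against 15.8% and 7.71% of all probes. On 6 of the 11 probes all vehicle arrays lay above all sham arrays, and on 0 below, beside 18.7% and 9.73% of all probes. Both counts of 6 include Lcn2 and Cd44 probe 3, which were well above background on 2 of 3 sham arrays. These entered the test only through the MCAO groups, where they are high.

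**Figure D1:**
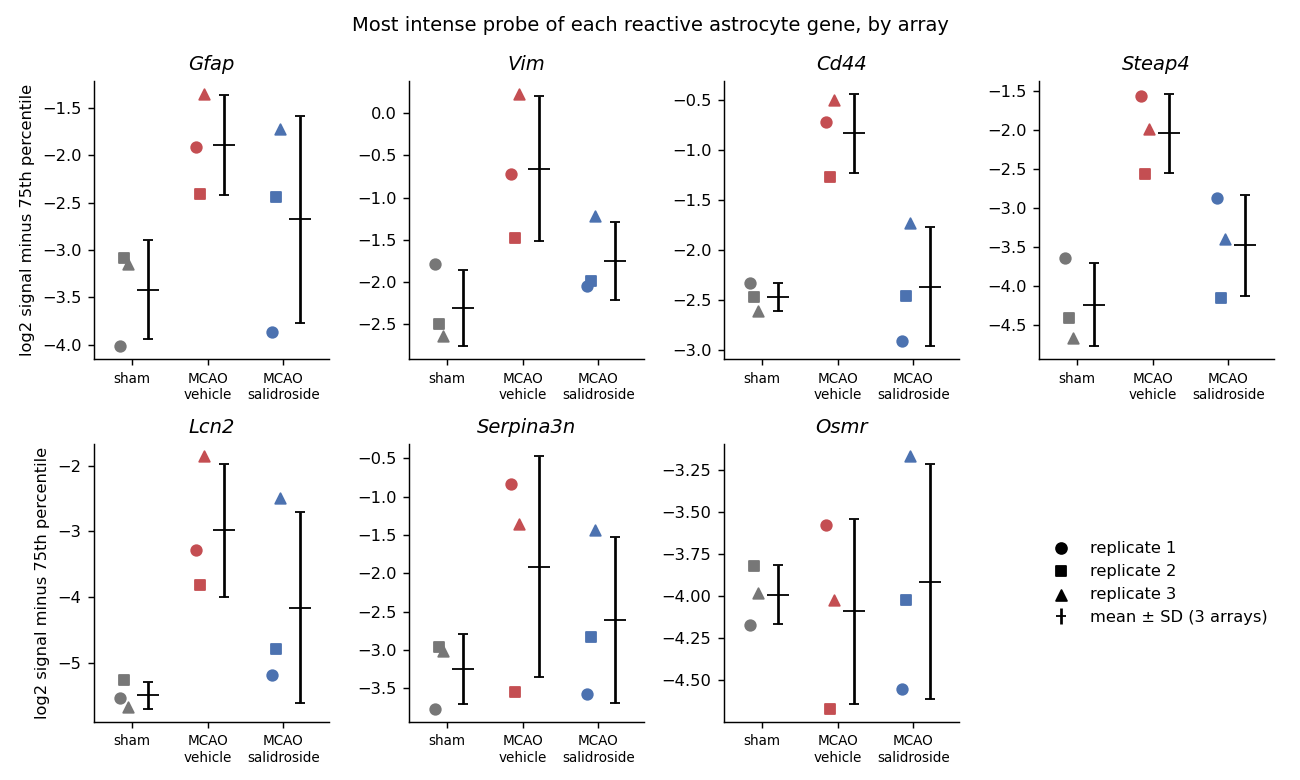
Scaled log2 signal (log2 processed signal minus the array's 75th percentile) of the most intense probe of each of the 7 genes, 1 point per array, with the mean and SD of 3 arrays beside each group and marker shape for the replicate number of the labels. Vehicle arrays lie above sham arrays for Gfap, Vim, Cd44, Steap4 and Lcn2 and overlap with them for Serpina3n and Osmr, and salidroside arrays spread widely for Gfap (-3.87 to -1.72) and Lcn2 (-5.19 to -2.5).

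Gfap encodes the intermediate filament by which astrocytes are identified. Its probe (A_44_P464502, the mean of 10 spots per array) read -4.02, -3.09 and -3.15 on sham replicates 1, 2 and 3, -1.91, -2.41 and -1.35 on the vehicle arrays, and -3.87, -2.44 and -1.72 on the salidroside arrays. All vehicle arrays were above all sham arrays, while salidroside replicate 1 lay among the sham arrays and salidroside replicate 3 among the vehicle arrays. The log2 difference between vehicle and sham was 1.53 (SE 0.536, 95% interval 0.31 to 2.75, limma adjusted p = 0.139). Between salidroside and vehicle it was -0.78 (95% interval -2.01 to 0.44, adjusted p = 0.987), and it changed sign to 0.07 with normexp background correction, where the median of all probes was 0.581. The group means were ordered vehicle, salidroside, sham, and neither neighbouring pair that includes salidroside was separated beyond its spread.

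Vim encodes vimentin, the filament partner of GFAP in reactive astrocytes and the main filament of many non-neural cells. The probe (A_42_P509365, 10 spots) gave -1.79, -2.49 and -2.64 in sham, -0.72, -1.48 and 0.23 with vehicle, and -2.05, -1.99 and -1.22 with salidroside. Vehicle replicate 3 was the highest array, and salidroside replicate 3 was the only treated array to reach the vehicle range. Vehicle exceeded sham by 1.65 (SE 0.44, 95% interval 0.64 to 2.65, limma adjusted p = 0.082). The log2 difference between salidroside and vehicle was -1.1 (SE 0.44, 95% interval -2.1 to -0.09, adjusted p = 0.813), and within the slides that held both groups this difference was -1.37 on slide 1 and -0.56 on slide 3. With array weights the vehicle difference from sham passed (1.97, adjusted p = 0.0209).

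Cd44 encodes the hyaluronan receptor, an adhesion molecule of reactive astrocytes and leukocytes. Its most intense probe (probe 1, A_64_P080817) read -2.33, -2.47 and -2.61 in sham, -0.72, -1.27 and -0.5 with vehicle, and -2.91, -2.46 and -1.73 with salidroside. Vehicle arrays stood apart from both other groups, which overlapped each other. The rise with vehicle over sham was 1.64 (SE 0.313, limma adjusted p = 0.038). The call was lost, at adjusted p of 0.0623 to 0.155 and log2 differences of 1.47 to 1.71, without sham replicate 1, 2 or 3, vehicle replicate 1 or 3 or salidroside replicate 2, with slide as a random block (1.6, 0.0553), without a filter on dim probes (1.64, 0.0595) and with normexp correction (1.24, 0.295). The log2 difference between salidroside and vehicle was -1.54 (SE 0.313, 95% interval -2.25 to -0.82), with an unadjusted p of 0.000973 but an adjusted p of 0.339. It was -1.48 within slide 1 and -1.64 within slide 3. Between salidroside and sham the probe differed by 0.1 (95% interval -0.61 to 0.82, adjusted p = 0.915), and by -0.02 under median scaling.

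Steap4 encodes a membrane metalloreductase that reduces iron and copper and is induced in inflammation. Its more intense probe (probe 1, A_64_P089555) gave -3.64, -4.41 and -4.67 in sham, -1.56, -2.57 and -1.99 with vehicle, and -2.87, -4.16 and -3.4 with salidroside. The vehicle arrays were above every other array, and salidroside replicate 1 came closest to them. Steap4 rose by 2.2 with vehicle (SE 0.405, 95% interval 1.28 to 3.13, limma adjusted p = 0.0355). Leaving out sham replicate 2 or 3, vehicle replicate 1 or 3 or salidroside replicate 3 lost the call (log2 differences 1.96 to 2.2, adjusted p 0.0579 to 0.144), as did slide as a random block (2.23, 0.0602), no filter on dim probes (2.2, 0.0565) and normexp correction (1.23, 0.678). The value for salidroside against vehicle was -1.44 (SE 0.405, 95% interval -2.37 to -0.52, adjusted p = 0.599). It was -2.01 within slide 1 but -0.3 within slide 3, which held 1 array of each group.

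Lcn2 encodes lipocalin 2, a secreted protein that binds iron-carrying siderophores and is made by reactive astrocytes and neutrophils. The probe (A_42_P638620) read -5.54, -5.27 and -5.68 in sham, of which sham replicate 3 was not well above background, then -3.29, -3.81 and -1.86 with vehicle, and -5.19, -4.79 and -2.5 with salidroside. Every MCAO array was above every sham array, and within the salidroside group replicate 3 stood far above the others. The vehicle value was 2.51 above sham (SE 0.713, 95% interval 0.88 to 4.13, limma adjusted p = 0.0943), the largest difference among the members, and passed without salidroside replicate 3 (adjusted p = 0.0481). With normexp correction it was 1.1 (adjusted p = 0.927). Salidroside differed from sham by 1.33 (95% interval -0.29 to 2.96, adjusted p = 0.453), or by 0.5 without salidroside replicate 3 and 1.85 without salidroside replicate 1, and from vehicle by -1.18 (95% interval -2.8 to 0.45, adjusted p = 0.959), the latter turning to 0.19 with normexp correction.

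Serpina3n encodes a secreted serine protease inhibitor of the acute phase. Its probe (A_44_P1000653) gave -3.77, -2.96 and -3.01 in sham, -0.84, -3.55 and -1.35 with vehicle, and -3.57, -2.83 and -1.43 with salidroside. The arrays fell into a high set of vehicle replicates 1 and 3 and salidroside replicate 3, and a low set of the other arrays that reached from -3.77 to -2.83. Group means therefore carried wide errors, -3.25 ± 0.456 in sham, -1.91 ± 1.44 with vehicle and -2.61 ± 1.09 with salidroside (SD, n = 3). No comparison passed, with 1.33 for vehicle against sham (SE 0.744, limma adjusted p = 0.32) and -0.7 for salidroside against vehicle (adjusted p = 0.987), which was 0.02 with normexp correction. Within slide 1 salidroside differed from vehicle by -1.04, and within slide 3 by -0.02. The 3 arrays of the high set were all on slide 1, as was salidroside replicate 2 of the low set. Ttr, the transthyretin gene of choroid plexus, was high on the same 3 arrays, at 4.28 on vehicle replicate 1, 6.43 on vehicle replicate 3 and 6.42 on salidroside replicate 3, and lay between -3.46 and -1.31 on the other arrays. Ttr was singled out after its values were seen. The choroid plexus marker Folr1 was also highest on vehicle replicates 1 (-2.34) and 3 (-0.9) and salidroside replicate 3 (-1.86). On the other arrays it read -2.76 or lower. Not all choroid plexus markers shared this pattern. Clic6 was lowest on salidroside replicate 3 (-6.15) and vehicle replicate 1 (-5.96), but highest on vehicle replicate 3 (-3.72). The part of slide and of choroid plexus tissue in the Serpina3n values was not tested.

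Osmr encodes the oncostatin M receptor subunit, which sits upstream of STAT3. The probe (A_64_P018811) read -4.17, -3.82 and -3.98 in sham, -3.58, -4.67 and -4.02 with vehicle, and -4.55, -4.02 and -3.17 with salidroside. The 3 groups overlapped throughout. Vehicle differed from sham by -0.1 (SE 0.378, 95% interval -0.96 to 0.76, limma adjusted p = 0.901), and the sign turned to 0.19 without vehicle replicate 2. Salidroside differed from vehicle by 0.18 (95% interval -0.69 to 1.04, adjusted p = 0.987), or by -0.12 without vehicle replicate 2 and -0.2 without salidroside replicate 3. These intervals still allow differences of nearly 1 in either direction.

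Whether salidroside changed this response is the study's question. The most intense probe, ranked with the vehicle arrays included, was lower with salidroside than with vehicle for 6 of the 7 genes. Among all 13276 named genes 5798 were lower. The less intense Steap4 probe 2 differed by 0.02, and Cd44 probes 2 and 3 by 0.07 and 0.11. The median log2 difference was -1.1 against 0.04 over all named genes. With normexp correction the signs of Gfap (0.07), Lcn2 (0.19) and Serpina3n (0.02) turned, while the median of all probes stood at 0.581. Limma called 0 of the 11 probes, and 0.0117% of all probes were called, 0.00391% as higher and 0.00782% as lower. At an unadjusted p under 0.05, 3 member probes were lower (Vim, Cd44 probe 1 and Steap4 probe 1), against 2.69% of all probes. Cd44 probe 4 is left out of these counts, since it entered the test only through the salidroside group, where it is high, and 0 of the other 10 probes were higher, against 3.12%. Salidroside arrays lay wholly below vehicle arrays on 2 probes, Cd44 probe 1 and Steap4 probe 1, as on 6.07% of all probes, and wholly above them on 0 of those 10, beside 5.66%. This comparison and that of vehicle against sham share the vehicle arrays.

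Treated MCAO brain was also set against sham. All 10 member probes other than Cd44 probe 4 had a positive log2 difference, as had 65.3% of all tested probes. The median over the 7 genes was 0.64 against 0.11 over all named genes. Limma called 0 of the 11 probes, where 1.09% of all probes were called, 0.25% as higher and 0.841% as lower. At an unadjusted p under 0.05, 1 was higher (Cd44 probe 3) and 0 lower, beside 11% and 3.62% of all probes. The sign turned for Osmr under quantile normalization (-0.17), median scaling (-0.05) and the deposited value table (-0.16), and for Cd44 probe 1 under median scaling (-0.02). Salidroside arrays lay wholly above sham arrays for 2 probes, Lcn2 and Cd44 probe 3, and wholly below for 0, beside 13.6% and 6.44% of all probes. Both probes were well above background on 2 of 3 sham arrays. They entered the test only through the MCAO groups, where they are high. Cd44 probe 3 (0.82, adjusted p = 0.138) was called with array weights (0.89, adjusted p = 0.0192) and without salidroside replicate 1 (1.03, adjusted p = 0.0453). For the mean of both MCAO groups against sham limma called 0 of 11, beside 3.17% of all probes, 1.6% as higher and 1.57% as lower. At an unadjusted p under 0.05, 6 were higher and 0 lower, beside 16.1% and 6.22%. Arrays of both MCAO groups lay above all sham arrays on 2 probes and below on 0, beside 9.37% and 4.29%. These 2 were again Lcn2 and Cd44 probe 3, so the count is given as a value only. Steap4 probe 1 came nearest by its p-value, at 1.48 (SE 0.351, adjusted p = 0.0585).

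**Figure D2:**
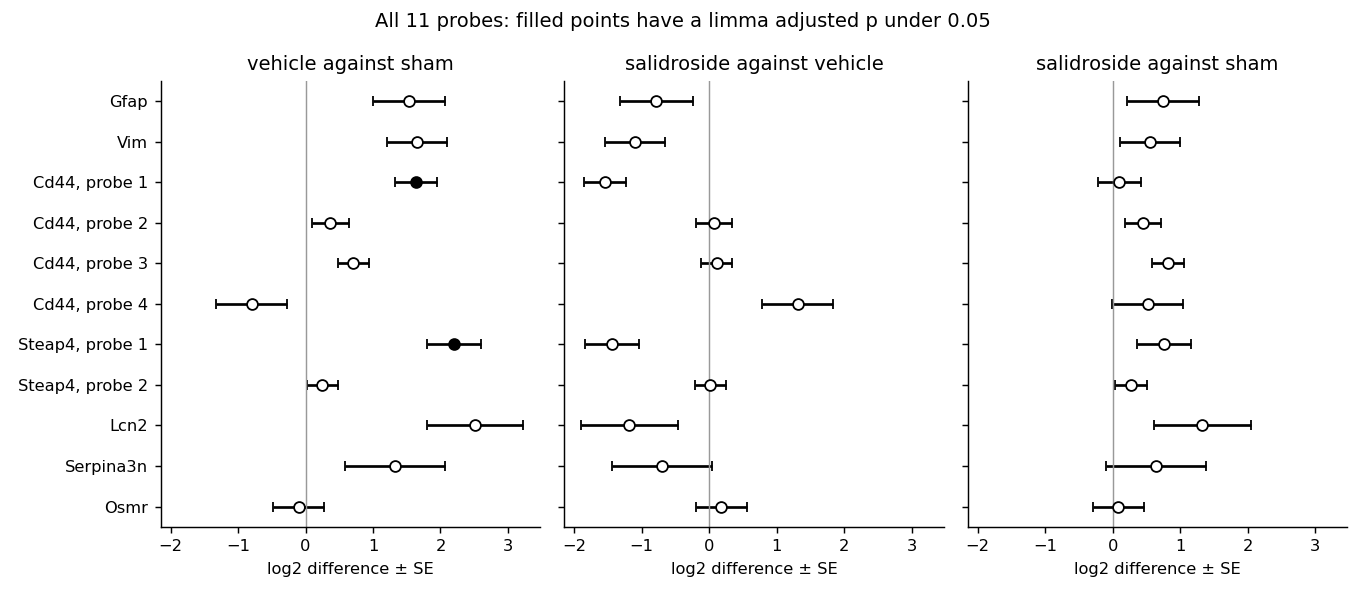
Log2 difference with its standard error from the limma fit for all 11 probes, in 3 panels for vehicle against sham, salidroside against vehicle and salidroside against sham. Filled points, Cd44 probe 1 (1.64) and Steap4 probe 1 (2.2) in the left panel, have an adjusted p under 0.05.

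Probes of 1 gene did not give 1 answer. The second Steap4 probe (A_64_P089561) was well above background on all arrays, yet its vehicle value differed from sham by 0.25 (SE 0.231, 95% interval -0.27 to 0.78, limma adjusted p = 0.55) and salidroside from vehicle by 0.02 (95% interval -0.51 to 0.55). Both differences changed sign in some settings, to -0.1 with normexp correction for the former and to -0.03 under quantile normalization for the latter. Within each array, probe 1 minus probe 2 was 1.13, -0.12 and -0.16 in sham, 2.68, 2.06 and 1.96 with vehicle, and 1.64, -0.2 and 0.88 with salidroside. This within-array quantity needs no scaling between arrays, and its vehicle values lay above all others. Probe 2 was the more intense on sham replicates 2 and 3 and salidroside replicate 2.

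Cd44 had 3 further probes on the same transcript. Probe 2 (A_64_P130995) was 0.37 higher with vehicle than in sham (SE 0.269, limma adjusted p = 0.44), and probe 3 (A_64_P280765) 0.71 higher (SE 0.234, adjusted p = 0.123), or -0.12 with normexp correction. On both, salidroside and vehicle arrays overlapped, with differences of 0.07 (95% interval -0.54 to 0.69) and 0.11 (95% interval -0.42 to 0.65) that turned negative without vehicle replicate 2 (-0.14 and -0.07) or salidroside replicate 3 (-0.11 and -0.06). Probe 4 (A_64_P130999) was dim, well above background on 1 sham array, 1 vehicle array and all 3 salidroside arrays. It entered the test through the salidroside group alone, so its difference of 1.31 from vehicle (SE 0.529, adjusted p = 0.815) is given as a value only.

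The distance between Cd44 probe 1 and probe 2 was nearly constant within the vehicle group, at 2.92, 2.92 and 2.98, and smaller elsewhere, at 1.93, 1.35 and 1.76 in sham and 1.19, 1.19 and 1.61 with salidroside. It was 1.26 larger with vehicle than in sham and 1.61 smaller with salidroside than with vehicle (log2 -1.61). Between probe 1 and probe 3 these shifts were 0.93 and -1.65, and salidroside lay 0.72 below sham (log2 -0.72), with no overlap between any 2 groups. The exact two-sided permutation test gave p = 0.1 for 7 of 9 shifts (3 pairs without Cd44 probe 4, over 3 comparisons), the smallest value that 3 against 3 arrays can give, and an adjusted p of 0.133 over a family of 12 that includes probe 4. The files name the same transcript for all 4 Cd44 probes, and which exons they lie on was not analysed here.

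**Figure D3:**
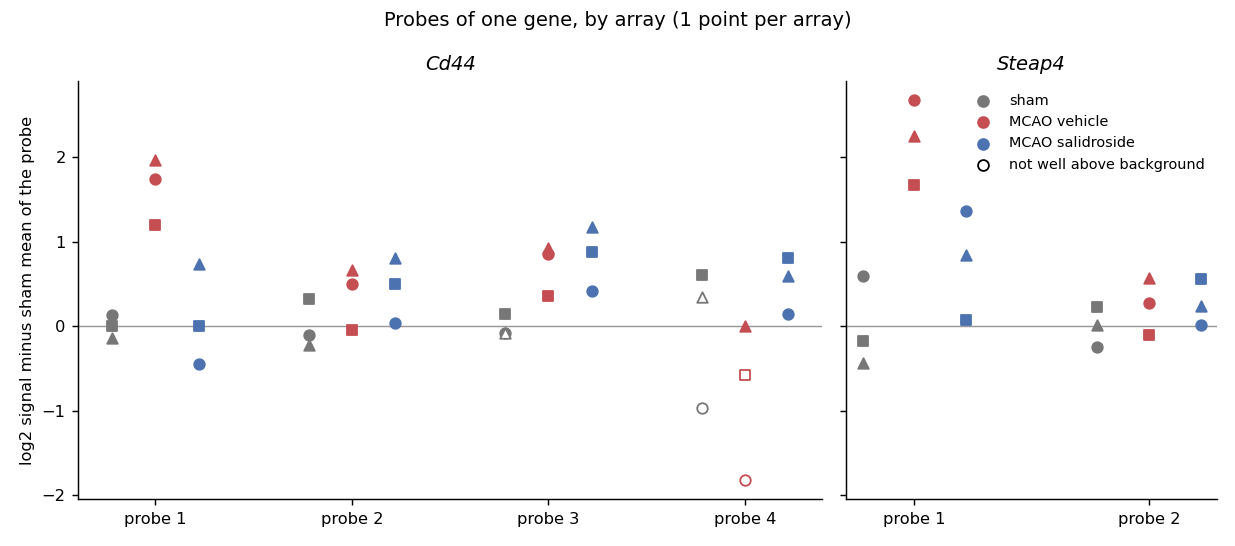
Log2 signal of each Cd44 and Steap4 probe minus its mean in sham, 1 point per array, coloured by group, with open points where the probe was not well above background. Vehicle arrays stand above the other groups on probe 1 of either gene and mix with salidroside arrays on Steap4 probe 2 and on Cd44 probes 2 and 3.

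Other genes of the reactive state were taken from lists, with 1 probe per gene and p-values adjusted over all probes. Of 9 other pan-reactive genes tested, limma called 2 higher with vehicle than in sham and 0 lower (median 0.57), the copper carrier Cp by 2.27 (SE 0.457, adjusted p = 0.0447) and the metalloproteinase inhibitor Timp1 by 2.19 (SE 0.408, adjusted p = 0.0362). Over all 13276 named genes 152 were called higher and 106 lower. With slide as a random block (estimated correlation 0.161) both calls were lost, at an adjusted p = 0.0721 for Cp and 0.0536 for Timp1. Aspg had a value of 1.77 (adjusted p = 0.0733). Genes assigned to an A1 type, a neuroinflammatory state, had a median of 0.61 with 0 of 7 called, Serping1, the C1 inhibitor, being nearest at 1.84 (adjusted p = 0.0713). Genes of an A2 type, described after ischemia, had a median of 0.5, and 2 of 9 were higher, the pentraxin Ptx3 by 2.41 (SE 0.395, adjusted p = 0.0232) and the endotoxin co-receptor Cd14 by 1.81 (SE 0.315, adjusted p = 0.0303). With slide as a random block Cd14 was lost (adjusted p = 0.0537) and Ptx3 kept its call. Cd14 is also a monocyte and microglia gene.

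With salidroside against vehicle none of these genes was called by limma. The pan-reactive median was -0.5, with 4 of 9 lower at an unadjusted p under 0.05 (Cp, Timp1, Aspg and Synm), the A1-type median was -0.53 with 2 of 7, and the A2-type median was 0 with 2 of 9 lower (Ptx3 and Cd14) and 1 higher (Ptgs2, at 0.97). Over all 13276 named genes 429 were lower and 483 higher at that threshold, and the median was 0.04. Ptx3 had the largest value, -2.93 (SE 0.395, adjusted p = 0.104), which passed under quantile normalization (-3.08, adjusted p = 0.0416), median scaling (-2.9, 0.0209) and a trend and robust prior (-2.93, 0.0459) and was -0.23 at the least, with normexp correction. Its scaled log2 signal was -5.45, -5.43 and -5.93 in sham (replicate 3 not well above background), -3.38, -3.95 and -2.25 with vehicle and -6.47, -5.93 and -5.98 with salidroside, so all treated arrays were at or below the lowest sham array.

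Upstream genes of the gp130 pathway had medians near those of all named genes, which were 0.1 with vehicle against sham and 0.04 with salidroside against vehicle. Of 11 tested, among them the ligands Osm, Il6, Lif and Cntf, the receptors Il6st and Lifr and the effector Stat3, limma called 0 with vehicle against sham (median 0.06, 1 at an unadjusted p under 0.05) and 0 with salidroside against vehicle (median 0.02, also 0 unadjusted). The Il6 receptor Il6r had the smallest p-value, at 1.25 (SE 0.375, adjusted p = 0.103), and the STAT3-induced feedback inhibitor Socs3 stood at -0.27 (SE 0.438, adjusted p = 0.751). Markers that astrocytes keep at rest, such as the glutamate transporter Slc1a2, the connexin Gja1 and glutamine synthetase Glul, had a median of 0.26 with vehicle against sham and -0.06 with salidroside against vehicle. Limma called 0 of 9 in both, and 0 passed at an unadjusted p under 0.05. Over all 13276 named genes limma called 152 higher and 106 lower with vehicle against sham, and 0 and 2 with salidroside against vehicle. At an unadjusted p under 0.05 these were 2148 and 927, and 483 and 429. A count of 0 called therefore does not set lists this short apart. Aldh1l1, a folate enzyme used to mark astrocytes, came nearest at 0.4 (SE 0.191, adjusted p = 0.243).

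**Figure D4:**
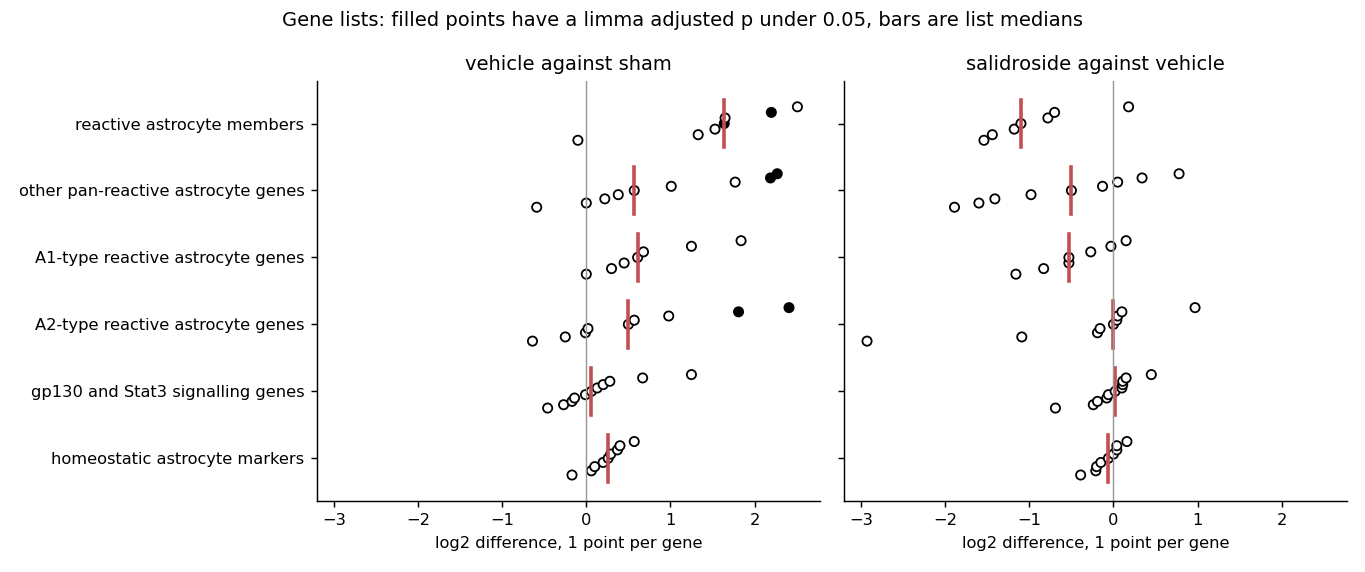
Log2 difference of each tested gene in 6 lists, 1 point per gene on its most intense probe, for vehicle against sham (left) and salidroside against vehicle (right), with list medians as bars and filled points where the limma adjusted p was under 0.05. Medians with vehicle against sham run from 1.64 for the members to 0.06 for the gp130 and Stat3 genes.

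The mean over the 7 genes, relative to sham, was 1.79, 0.77 and 2.05 on vehicle replicates 1, 2 and 3 and 0.02, 0.35 and 1.43 on the salidroside arrays, with sham arrays between -0.08 and 0.09. Vehicle replicate 2 was the lowest vehicle array for each of the 7 genes, and salidroside replicate 3 was the highest treated array for all but Steap4, which was highest on salidroside replicate 1. Osmr did not follow the mean, with -4.02 on vehicle replicate 3, the array of the highest mean, against a sham mean of -3.99. The homeostatic astrocyte mean stayed between -0.16 and 0.32 on all 9 arrays. Slide 3 held vehicle replicate 2 and salidroside replicate 1, the lowest array of either group by member mean.

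Markers of other cell types also varied between the MCAO arrays, and their part in the result was not tested. The mean of 4 macrophage markers was 1.17, 0.25 and 1.57 on the vehicle arrays and -0.01, 0.34 and 0.88 on the salidroside arrays. Vehicle replicate 2 lay below salidroside replicate 2 here and above it for the members. Among the macrophage markers the scavenger receptor Cd163 had a vehicle difference of 2.78 (limma adjusted p = 0.0223), given as a value only: it was well above background on 1 of 3 sham arrays and 2 of 3 salidroside arrays, entered the test through the vehicle group, and stood at 0.39 with normexp correction. Ccr2 entered through the salidroside group and was well above background on 2 of 3 sham and 2 of 3 vehicle arrays. The mean of the macrophage list therefore rests in part on readings near background. The mean of 7 microglia markers was 0.81, 0.23 and 0.87 with vehicle and 0.03, 0.2 and 0.74 with salidroside, with the integrin Itgam at 1.97 (adjusted p = 0.1), P2ry12 at 1.3 (0.0613) and Cx3cr1 at -1.28 (0.0913). Itgam was well above background on 1 of 3 sham arrays, and its difference was 0.06 at the least over the alternatives. For 5 choroid plexus markers the mean was 1.69, 1.24 and 4.55 with vehicle and -0.48, 1.34 and 2.7 with salidroside, 0 of them called, with Folr1 at 2.07 (adjusted p = 0.107). These genes did not all follow each other, although Ttr and Folr1 were both highest on vehicle replicates 1 and 3 and salidroside replicate 3. Otx2, which entered through the vehicle group and was well above background on 1 of 3 sham arrays, read -0.88 on vehicle replicate 2 and -0.84 on salidroside replicate 2, where Ttr was below its sham values, and -5.76 on vehicle replicate 1, where Ttr was high.

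Ependymal markers, cilia genes of the ventricle lining, averaged 1.66, 1.65 and 2.46 on the vehicle arrays and 0.01, 1.41 and 0.79 on the salidroside arrays over 4 genes. Foxj1 had a vehicle difference of 1.95 (adjusted p = 0.0609). Tekt1, which entered the mean through the vehicle group alone, was well above background on the 3 vehicle arrays and on no other, and Tmem212 on 1 of 3 sham arrays, so the mean of this list rests in part on readings near background. Neutrophil markers, which share Lcn2 as a product, averaged 0.87, 1.29 and 2.63 with vehicle and 0.68, 1.85 and 1.76 with salidroside over 4 tested of 7 listed genes, with S100a8 at 2.51 (adjusted p = 0.148) and S100a9 at 2.1 (adjusted p = 0.155). S100a8 was well above background on 1 of 3 sham arrays, and vehicle replicate 1 (-6.21) lay below sham replicate 1 (-5.5). Over the alternatives its difference was 0.53 at the least. The medians for vehicle against sham were 0.98 for 6 fibroblast and meningeal genes with 0 called (Dcn at 1.16, adjusted p = 0.0791), 0.1 for 6 endothelial genes, of which the receptor Kdr fell by 0.71 (adjusted p = 0.0497), -0.41 for 5 neuronal genes with 0 called (Tubb3 at -0.41, adjusted p = 0.175) and -0.04 for 6 oligodendrocyte genes with 0 called. Of 2 tested red cell genes the globin Hbb fell by 1.27 (adjusted p = 0.0455).

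Outside the members, the calls on Cp, Timp1, Ptx3, Cd14, Kdr, Hbb and, below, Sult1a1 depended on single arrays as the members' calls did. Each was lost without sham replicate 2 (adjusted p 0.0555 to 0.1) and without sham replicate 3 (0.0568 to 0.192), and each kept its sign. Without vehicle replicate 3 all but Ptx3 were lost (0.0633 to 0.171), and without vehicle replicate 1 all but Cd14 and Sult1a1 (0.0565 to 0.11). Some of the remaining arrays also ended the call for Cp, Timp1, Cd14, Kdr and Hbb. With normexp correction all were lost (0.0903 to 1), with log2 differences of 0.91 for Ptx3 and 1.07 for Cd14. Slide as a random block also ended the calls for Kdr (0.074) and Hbb (0.0711). Cd163, given above as a value only, and Hspa2, named below, were also called and are not covered by these statements.

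**Figure D5:**
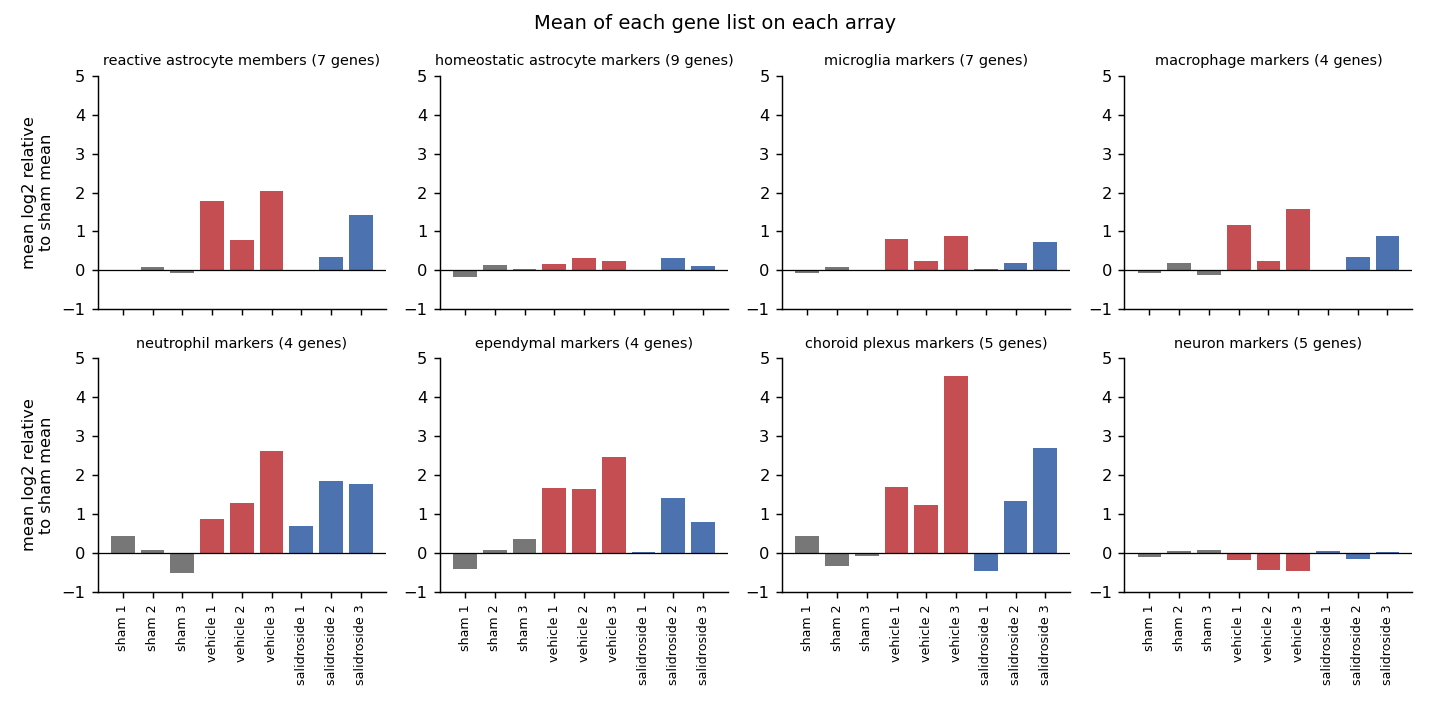
Mean log2 signal of 8 gene lists on each of the 9 arrays, relative to the sham mean of each gene, as bars coloured by group. Bars of the members, microglia, macrophage and choroid plexus lists are higher on vehicle replicates 1 and 3 and salidroside replicate 3 than on the other array or arrays of their group, and bars of the homeostatic astrocyte list stay between -0.16 and 0.32.

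The genes with the most similar profiles were sought among 13239 other named genes, as the root mean square difference over the 9 arrays after centring each gene on its mean, on the log2 scale. This is a description and has no test. Nearest to Gfap were Vav1 (0.174), a signalling protein of blood cells that was well above background on 5 arrays, the phospholipase family member Pld4 (0.22) and the class I histocompatibility gene RT1-A2 (0.223), where the spread of Gfap itself was 0.883. Vim had as neighbours the lectin receptor Clec4a3 (0.175), the complement receptor C5ar1 (0.203) and the lysosomal protease Ctsc (0.207). Nearest to Cd44 was Lcp1, an actin-bundling protein of leukocytes (0.265), then S100a3 (0.266) and Fcgr2al1 (0.282). Lcn2 was nearest to Gpr18 (0.245), Glipr1 (0.273) and the macrophage lectin Siglec1 (0.312).

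Steap4 had a looser match, with the sulfotransferase Sult1a1 (0.315) first, then Mgst2 (0.404) and Hspa2 (0.416). Sult1a1 was itself higher with vehicle by 2.09 (limma adjusted p = 0.0141) and Hspa2 by 1.6 (limma adjusted p = 0.0452). The profile of Serpina3n was least like any other, with Lrat (0.455), the thromboxane synthase Tbxas1 (0.512) and Il17rb (0.525) nearest against an own spread of 1.03. Osmr varied little (spread 0.434), and its neighbours Raet1l (0.109), Cytip (0.112) and Fxyd2 (0.119) also differed between vehicle and sham by at most 0.21 in size (log2 -0.21, 0.06 and 0).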

How the data were processed

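Per the file headers, the authors extracted single-colour Cy3 spot intensities with Agilent Feature Extraction 11.0.1.1 from arrays designed on the rat build rn4, on a linear scale with the background already removed. The deposited value table gives log2 numbers for 19477 probes (column medians 8.691 to 8.706, so scaled between arrays and not centred per gene, by a method not given in the sources used here). Its columns correlated with the matching array's log2 signal at 0.9997 or more.

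In R 4.3.3 with limma 3.58.1, log2 processed signals were scaled by each array's 75th percentile over 42877 non-control spots. Outlier-flagged spots were dropped and a probe's spots averaged. A probe was tested when all arrays of any group read it well above background (25576 probes, including all 11 member probes, which had no missing value). A RefSeq table on GRCr8 named 18005 probes by transcript, and 12362 stayed unnamed. One fit of 3 groups over all 9 arrays (lmFit, contrasts, eBayes, 6 residual and 2.55 prior degrees of freedom) gave differences, standard errors and Benjamini-Hochberg adjusted p-values, and was tested on simulated data. The members, the gene lists and the naming rule were chosen with earlier results of these data known. The rule names all member probes, in each list called genes or up to 3 with the smallest p-values, and the 3 genes of most similar profile. Ttr, Mbp, Slc1a2, Gja1, Glul, Socs3, Tekt1 and other genes named as examples were picked after their values were seen. The most intense probe of a gene was the tested probe with the highest mean log2 signal over all 9 arrays. Probes of a gene were compared by exact permutation. The number of arrays limits precision, and limma p-values set a group difference against the spread between arrays. Alternatives covered background correction, scaling, the filter, probes per gene, outlier flags, array weights, the prior, slide, replicate number and leaving out each array. Normexp used the median pixel signal with an offset of 50.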

Additional observations from a re-analysis of the deposited data

How the results depend on the processing

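Of 674 values of single probes under the alternatives, 629 kept their direction and their side of the threshold, 18 lost a call, all of them for Cd44 probe 1 or Steap4 probe 1 with vehicle against sham, 4 gained one and 23 changed sign. The 2 member probes called with vehicle against sham became 0 with normexp correction (median pixel signal, an alternative chosen after seeing the files), without a filter on dim probes and with slide as a random block, and 1 with the replicate block (Cd44 probe 1 adjusted p = 0.0685). Leaving out 1 array gave between 0 and 2 calls. For salidroside against sham the count of 0 became 1 with array weights and was 0 to 1 when 1 array was left out. For both MCAO groups against sham it became 6 with array weights, 1 with a trend and robust prior, 1 with the replicate block and 0 to 4 when 1 array was left out. For salidroside against vehicle 0 member probes were called in all settings run. The cause of these shifts was not tested. Normexp moved the median of all probes from 0.097 to -0.148 with vehicle against sham and from 0.054 to 0.581 with salidroside against vehicle.

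Sign changes with normexp were -0.12 (Cd44 probe 3) and -0.1 (Steap4 probe 2) with vehicle against sham, and 0.07 (Gfap), 0.19 (Lcn2) and 0.02 (Serpina3n) with salidroside against vehicle. Steap4 probe 2 was at -0.03 under quantile normalization and -0.03 in the deposited table for salidroside against vehicle. For salidroside against sham Osmr was at -0.17 (quantile), -0.05 (median scaling) and -0.16 (deposited table), and Cd44 probe 1 at -0.02 (median scaling). When 1 array was left out, the lowest and highest values were -0.35 and 0.19 (Osmr, vehicle against sham), -0.14 and 0.28 (Cd44 probe 2), -0.07 and 0.32 (Cd44 probe 3), -0.16 and 0.18 (Steap4 probe 2) and -0.2 and 0.5 (Osmr) for salidroside against vehicle, and -0.22 and 0.38 (Cd44 probe 1) and -0.3 and 0.4 (Osmr) for salidroside against sham, where Osmr was at -0.01 without sham replicate 1.

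The replicate numbers of the labels did not pair the arrays. Deviations of same-numbered arrays correlated between -0.187 and 0.255, and salidroside replicate 1 correlated best with vehicle replicate 2 (0.456), an array of its own slide. Pairs of a vehicle and a salidroside array on slide 1 ranged from -0.287 to 0.353, so arrays of 1 slide did not correlate throughout. Beside the members, the replicate block ended the calls for Cp, Timp1, Ptx3, Cd14, Kdr and Hbb (adjusted p 0.0581 to 0.0835) and brought Foxj1 past the threshold (0.0462). Foxj1 and P2ry12, not called in the main fit, each passed in 8 of 21 alternatives. The deposited table holds 8 of the 11 member probes, and the planned correction on the mean pixel signal was not run. On sham replicate 3, the array with the lowest 75th percentile (a signal of 495.5, against 950.1 to 2340 on the other arrays), Lcn2 and Cd44 probes 3 and 4 were not well above background.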
